A study of Homo sapiens with 10 samples.

Results

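The leukocyte immunoglobulin-like and Fc receptors described here are 10 genes, chosen by gene name from the 50868 genes of the table: LILRB1, LILRB2, LILRB3, LILRB4, LILRA2, LAIR1, VSTM1, FCAR, FCGR2A and TYROBP. They were followed in RNA-seq libraries of Kasumi-1, an established human myeloid leukemia line with a translocation between chromosomes 8 and 21 that fuses RUNX1 (AML1) to RUNX1T1 (ETO). Each library came from cells at 4 to 5 passages that a retrovirus had made to overexpress HA-tagged E2-2, E2A or HEB, against cells that had received the empty MIGR1 vector. E2-2, E2A and HEB are E proteins, basic helix-loop-helix transcription factors that bind DNA at E-boxes and take part in the AML1-ETO complex. Infected cells of all 4 groups carry GFP and were sorted for it 4 days after infection. The libraries held 14816708 reads for E2-2, 17673090 for E2A, 16791922 for HEB and 15728974 for vector. The transduced genes matched the labels: TCF4 (E2-2) had 12484 reads in the E2-2 library and 4, 1 and 4 in E2A, HEB and vector, TCF3 (E2A) was 5.20-fold higher in E2A than in vector, and TCF12 (HEB) 5.08-fold higher in HEB than in vector.

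There was 1 library per group. No spread between cultures could be measured, and so there is no test across samples and no p-value. Intervals in parentheses are 95% exact counting intervals and leave out differences between cultures. PCR copies of a molecule cannot be told from separate molecules. Levels are CPM, reads scaled to a library of 1000000. A call (higher or lower) required a fold of at least 2, an interval without 1 in it, and at least 30 reads of the gene over both libraries compared. In bulk RNA, a change in the share of cells that express a gene and a change in RNA per cell cannot be told apart.

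Most of these receptors come from a cluster on chromosome 19, the leukocyte receptor complex. LILRB1 to LILRB4, LAIR1 and VSTM1 are inhibitory: their tails carry ITIM motifs that, once phosphorylated, recruit the phosphatases PTPN6 and PTPN11. LILRA2 and the IgA receptor FCAR are activating and signal through the adaptor FCER1G, which carries an ITAM. FCGR2A binds IgG and has an ITAM-type motif in its own tail. TYROBP, also called DAP12, is an ITAM adaptor for other receptors such as TREM1, and phosphorylated ITAMs recruit the kinase SYK. In blood these genes are used mainly by monocytes, macrophages, granulocytes and dendritic cells.

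The genes lie at 3 places by the table's positions, and all 10 overlapped the RefSeq gene of the same symbol on GRCh38. VSTM1 (ENSG00000189068, chromosome 19, 54040825 to 54063953), LILRB3 (ENSG00000204577, 54216278 to 54223506), LILRB2 (ENSG00000131042, 54238904 to 54281184), LAIR1 (ENSG00000167613, 54351384 to 54370558), LILRA2 (ENSG00000239998, 54572920 to 54590287), LILRB1 (ENSG00000104972, 54617158 to 54637528), LILRB4 (ENSG00000186818, 54643889 to 54670359) and FCAR (ENSG00000186431, 54874248 to 54890472) follow each other in this order. TYROBP (ENSG00000011600) lies elsewhere on chromosome 19 at 35904401 to 35908295. FCGR2A (ENSG00000143226) lies on chromosome 1 at 161505430 to 161524013. LILR genes resemble each other closely, FCGR2A has a near-identical copy in FCGR2C and LILRB3 in LILRA6, so the reads of single members are less certain than their intervals say. The table's LILRB2 spans 42281 nucleotides and overlaps 5 other genes, among them LILRB5, LILRA6 and RPS9. LILRB3 overlaps RPS9 as well. How reads in shared stretches were assigned is not given, so the low counts of LILRB3 may also reflect this overlap, which was not tested.

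E proteins bind E-boxes, written CANNTG, and the promoters of the 4 members called higher in E2-2 than in vector are shown for that reason. Each runs from 250 bases before to 50 after the RefSeq start (GRCh38.p14) nearest to the start of the table's gene, 5′ to 3′ on the gene's strand, with E-boxes in capitals. The windows are chr19:54616879-54617178 (plus strand) for LILRB1, chr19:54281061-54281360 (minus strand) for LILRB2, chr19:35908246-35908545 (minus strand) for TYROBP and chr1:161505207-161505506 (plus strand) for FCGR2A.
LILRB1: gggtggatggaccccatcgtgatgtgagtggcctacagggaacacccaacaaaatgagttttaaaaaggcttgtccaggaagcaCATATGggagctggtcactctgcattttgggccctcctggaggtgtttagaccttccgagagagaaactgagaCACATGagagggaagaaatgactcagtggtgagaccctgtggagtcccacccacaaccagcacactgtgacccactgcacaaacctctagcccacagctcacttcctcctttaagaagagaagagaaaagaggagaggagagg
LILRB2: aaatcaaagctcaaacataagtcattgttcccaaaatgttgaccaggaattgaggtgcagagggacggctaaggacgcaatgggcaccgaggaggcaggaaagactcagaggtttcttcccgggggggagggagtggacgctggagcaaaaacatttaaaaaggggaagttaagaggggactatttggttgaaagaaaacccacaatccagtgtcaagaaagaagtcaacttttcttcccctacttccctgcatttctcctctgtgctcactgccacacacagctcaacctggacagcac
TYROBP: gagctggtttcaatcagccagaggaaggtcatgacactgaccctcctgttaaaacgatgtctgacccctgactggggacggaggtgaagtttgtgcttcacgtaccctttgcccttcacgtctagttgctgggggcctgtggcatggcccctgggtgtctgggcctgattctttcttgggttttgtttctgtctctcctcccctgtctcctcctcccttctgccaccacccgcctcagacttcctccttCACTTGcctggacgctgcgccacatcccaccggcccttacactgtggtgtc
FCGR2A: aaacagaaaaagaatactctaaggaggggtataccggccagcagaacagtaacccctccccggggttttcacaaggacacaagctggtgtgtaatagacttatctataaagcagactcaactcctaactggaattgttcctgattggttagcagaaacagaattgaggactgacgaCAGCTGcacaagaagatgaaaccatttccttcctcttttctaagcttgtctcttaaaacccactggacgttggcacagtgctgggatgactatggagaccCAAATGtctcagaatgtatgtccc
LILRB1 holds 2 E-boxes, CATATG and CACATG, TYROBP holds CACTTG across its start site, FCGR2A holds CAGCTG and CAAATG, and LILRB2 holds none in these letters. CANNTG reads the same on both strands, and 68.7% of 35116 promoters of this length hold at least 1. The table of promoters gave 14 windows for 8 of the 10 members, and 11 of the 14 held CANNTG. VSTM1 and FCAR were not matched. Of the forms of CANNTG searched alone, CAGCTG stood in 2 of the 14 windows and in 17.9% of all promoters. CAGGTG, searched on both strands, stood in 1 of the 14 and in 20.6% of all. On either strand, the RUNX motif TGTGGT stood in 4 of the 14 windows and 13.1% of all promoters, and the ETS core GAGGAA in 7 of the 14 and 27.9% of all. Some windows of the same gene overlap. These matches describe the letters and show no binding.

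The inhibitory receptors LILRB1 and LILRB2 were nearly silent in vector cells and highest with E2-2. LILRB2, a receptor for MHC class I and for ANGPTL2, had 92 reads in E2-2 (6.07 CPM), 17 in E2A (0.962 CPM), 4 in HEB (0.242 CPM) and 1 in vector (0.0641 CPM). It was 94.6-fold (16.6 to 3777.6) higher in E2-2 than in vector, a fold that rests on 1 vector read. LILRB1, also a receptor for MHC class I, had 43 reads in E2-2 (2.84 CPM), 26 in E2A (1.47 CPM), 11 in HEB (0.665 CPM) and 3 in vector (0.192 CPM). It was 14.7-fold (4.72 to 74.3) higher in E2-2 than in vector. Both genes thus had the same order of libraries, E2-2 above E2A above HEB above vector, and both intervals of HEB against vector included 1.

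In E2A the same receptors were above vector with too few reads for a call. LILRB2 was 15.0-fold (2.35 to 627) higher in E2A than in vector and LILRB1 7.65-fold (2.34 to 39.5) higher, and each pair of libraries held under 30 reads. In HEB the folds over vector were 3.77 (0.373 to 186) for LILRB2 and 3.46 (0.913 to 19.3) for LILRB1. Because the table's LILRB2 overlaps LILRB5 and LILRA6, their reads were also summed, a choice made after seeing the data. The sum was 126 reads in E2-2, 44 in E2A, 7 in HEB and 3 in vector. Over vector the fold was 43.2 (14.4 to 212) with E2-2 and 12.9 (4.15 to 65.2) with E2A, both called. Both sums passed the read minimum only through the E protein library and so had to differ. In E2A, LILRB5 gave 21 of the 44 reads.

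LILRB3 and LILRB4 had few or no reads in every library and showed no such order. LILRB3, an inhibitory receptor of myeloid cells, had 5 reads in E2-2, 7 in E2A, 4 in HEB and 7 in vector, and the interval of every pair included 1. With LILRA6 added it had 10, 13, 5 and 8 reads in the same order of libraries. LILRB4, an inhibitory receptor of monocytes and dendritic cells, was at 0 reads in every library. A count of 0 allows up to 3 reads (a one-sided limit, at 95%), or 0.170 to 0.198 CPM. A small difference in LILRB3 or LILRB4 was not detectable at this depth. A rise as large as that of LILRB2 was not seen in the reads counted. For LILRB3 the interval of E2-2 over vector was 0.184 to 2.69. LILRB4 stayed within 0.198 CPM in E2-2, where LILRB2 stood at 6.07 CPM.

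**Figure D1:**
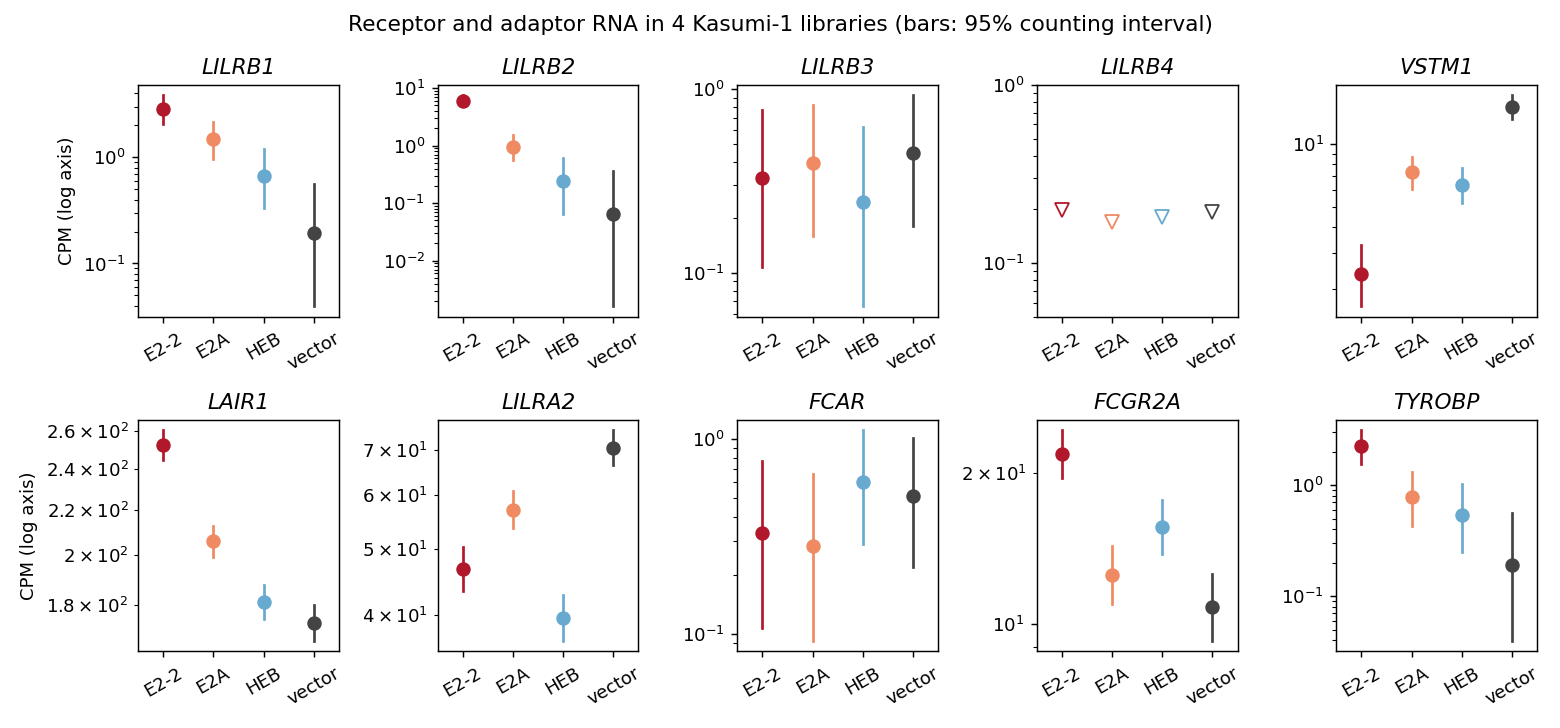
CPM of the 10 genes on log axes, 1 panel per gene and 1 point per library, with lines for 95% counting intervals; open triangles for LILRB4 mark the level of 3 reads, since it had 0. LILRB1, LILRB2 and TYROBP step down from E2-2 to E2A, HEB and vector, and VSTM1 is lowest in E2-2 at 2.37 CPM and highest in vector at 15.1 CPM.

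VSTM1, the inhibitory receptor SIRL-1 of granulocytes and monocytes, moved the other way. It had 36 reads in E2-2 (2.37 CPM), 129 in E2A (7.30 CPM), 105 in HEB (6.35 CPM) and 235 in vector (15.1 CPM). Relative to vector, E2-2 was lower by 6.35-fold (4.46 to 9.28), E2A by 2.06-fold (1.66 to 2.58) and HEB by 2.37-fold (1.88 to 3.02), all called. It is the member that was called against vector for all 3 E proteins, and all 3 calls share the vector library. E2A and HEB differed by less than counting error, at 1.15-fold (0.882 to 1.503), while E2-2 was 3.08-fold (2.11 to 4.58) lower than E2A and 2.67-fold (1.81 to 4.02) lower than HEB.

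LAIR1, an inhibitory receptor for collagens, was the most abundant member and differed little. It had 3825 reads in E2-2 (252 CPM), 3636 in E2A (206 CPM), 2997 in HEB (181 CPM) and 2702 in vector (173 CPM). Relative to vector, E2-2 was higher by 1.46-fold (1.39 to 1.53), E2A by 1.19-fold (1.13 to 1.25) and HEB by 1.05-fold (0.992 to 1.10). The order of libraries matched that of LILRB1 and LILRB2, with folds under 2 throughout.

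LILRA2, an activating receptor, was lower with each E protein without reaching 2-fold. It had 708 reads in E2-2 (46.7 CPM), 1009 in E2A (57.1 CPM), 655 in HEB (39.6 CPM) and 1099 in vector (70.5 CPM). Below vector by 1.51-fold (1.37 to 1.66) with E2-2, it stood below by 1.23-fold (1.13 to 1.35) with E2A and by 1.78-fold (1.61 to 1.96) with HEB. HEB was the lowest library for LILRA2, unlike VSTM1, for which it was E2-2. The intervals of all 6 pairs of libraries excluded 1.

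Among the Fc receptors, FCGR2A was measured well and FCAR was not. FCGR2A had 332 reads in E2-2 (21.9 CPM), 222 in E2A (12.6 CPM), 259 in HEB (15.7 CPM) and 169 in vector (10.8 CPM). E2-2 stood 2.02-fold (1.67 to 2.45) above vector, just past the 2-fold rule. The fold over vector was 1.16 (0.945 to 1.43) with E2A and 1.44 (1.19 to 1.76) with HEB. With the reads of its near-identical copy FCGR2C added, a choice made after seeing the data, it was 2.203-fold (1.92 to 2.54) higher in E2-2 than in vector. FCAR had 5 reads in E2-2, 5 in E2A, 10 in HEB and 8 in vector, and every interval included 1.

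The adaptor TYROBP followed LILRB1 and LILRB2 at a low level. It had 34 reads in E2-2 (2.24 CPM), 14 in E2A (0.792 CPM), 9 in HEB (0.544 CPM) and 3 in vector (0.192 CPM). It was 11.7-fold (3.67 to 59.3) higher in E2-2 than in vector. The fold over vector was 4.12 (1.15 to 22.4) with E2A and 2.83 (0.706 to 16.2) with HEB, each on under 30 reads. E2A and HEB were not separated by counting error.

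**Figure D2:**
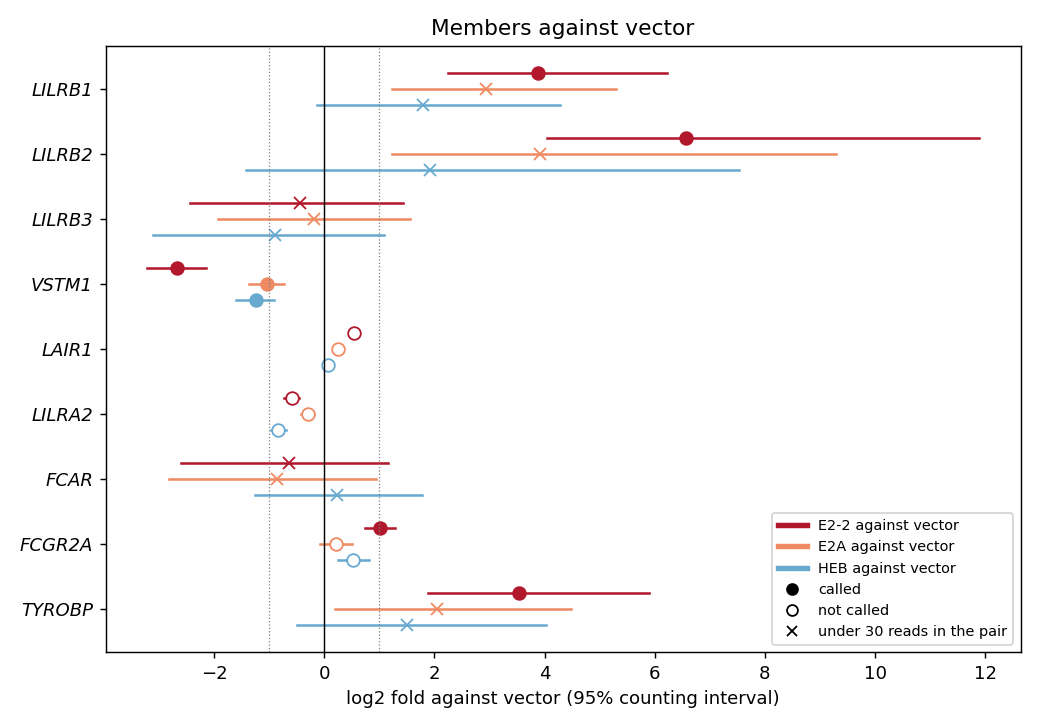
Log2 fold against vector of 9 members in E2-2, E2A and HEB, with lines for 95% counting intervals; filled circles are called, open circles not called, and crosses had under 30 reads in the pair. In E2-2, LILRB1, LILRB2, TYROBP and FCGR2A lie above the dotted line of a 2-fold difference and VSTM1 lies below it with all 3 E proteins.

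Of the 10 members, 7 had at least 30 reads in E2-2 and vector together, and 4 were called higher and 1 lower. Of all genes measured in that pair, 8.45% were called higher and 3.55% lower. LILRB1, LILRB2 and TYROBP passed the minimum only through their E2-2 reads and so had to differ, and the count is therefore no measure of the group. Against vector, E2A had 0 members higher and 1 lower of 4 measured, beside 4.89% higher and 1.58% lower over all genes. HEB likewise had 0 higher and 1 lower of 4, beside 2.55% and 1.23%. The comparisons against vector share the vector library, so the low vector reads of LILRB1, LILRB2 and TYROBP, and the high vector reads of VSTM1, enter all 3.

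The direct comparisons do not use the vector library, but they reuse the E2-2, E2A and HEB libraries that were set against vector. E2-2 against E2A had 2 members higher and 1 lower of 7 measured, where 3.63% of all genes were higher and 1.61% lower. TYROBP was measured there only through its E2-2 reads. LILRB2 was 6.31-fold (3.73 to 11.3) and TYROBP 2.83-fold (1.48 to 5.71) higher in E2-2 than in E2A, and LILRB1 was 1.93-fold (1.16 to 3.27) higher, below the rule. The summed reads of LILRB2, LILRB5 and LILRA6 were 3.34-fold (2.35 to 4.82) higher in E2-2 than in E2A, a smaller fold than that of LILRB2 alone.

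E2-2 against HEB had 3 higher and 1 lower of 7, where 6.09% of all genes were higher and 1.57% lower. The 3 higher genes again passed the read minimum only through E2-2, so nothing is read from that count. LILRB2 was 25.1-fold (9.48 to 94.1), LILRB1 4.27-fold (2.16 to 9.17) and TYROBP 4.12-fold (1.94 to 9.77) higher in E2-2 than in HEB. E2A against HEB had 1 higher and 0 lower of 5, where 2.38% were higher and 0.696% lower. The called gene was LILRB1, at 2.21-fold (1.06 to 4.96), which passed the minimum only through its E2A reads. LILRB2 was 3.98-fold (1.298 to 16.3) higher in E2A than in HEB with under 30 reads.

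Levels of different genes were compared in the authors' FPKM, which divide reads by a gene length. The length implied by reads and FPKM was within the gene's span for all 9 members with reads, from 2069 nucleotides for VSTM1 to 16506 for LAIR1, so a long gene model lowers the FPKM of LAIR1. In E2-2 the order per length was LAIR1 (15.6 FPKM), LILRA2 (5.84), FCGR2A (2.01), VSTM1 (1.17), TYROBP (0.874), LILRB2 (0.786), LILRB1 (0.358), FCAR (0.0768) and LILRB3 (0.0487). The neighbours VSTM1 and TYROBP, TYROBP and LILRB2, and FCAR and LILRB3 overlapped in their counting intervals. In vector the order was LAIR1 (10.4 FPKM), LILRA2 (8.54), VSTM1 (7.22), FCGR2A (0.966), FCAR (0.116), TYROBP (0.0727), LILRB3 (0.0642), LILRB1 (0.0235) and LILRB2 (0.00805). There LILRA2 and VSTM1 overlapped, as did each neighbour from FCAR down. VSTM1 ranked above FCGR2A in E2A, HEB and vector, with intervals apart, and below it in E2-2. In E2A and HEB the first 5 places were the same, LAIR1, LILRA2, VSTM1, FCGR2A and TYROBP, and neighbours from TYROBP down overlapped.

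**Figure D3:**
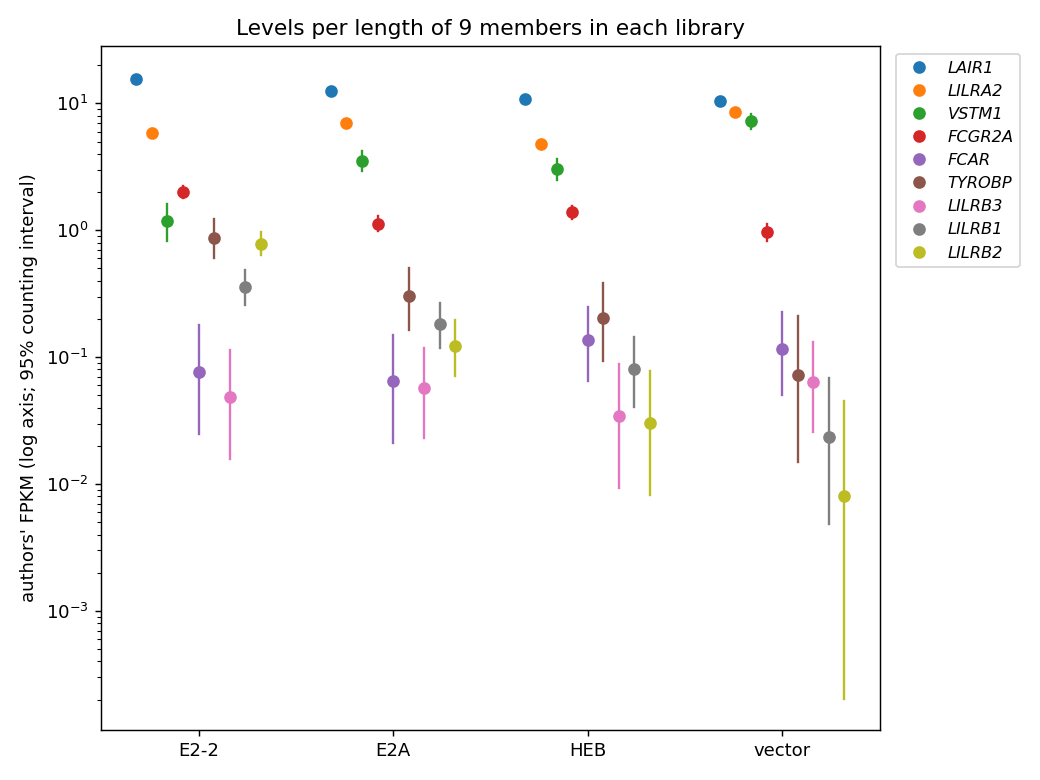
The authors' FPKM of 9 members in each library on a log axis, with lines for 95% counting intervals; LILRB4, with 0 reads, is left out. LAIR1 and LILRA2 lead in all 4 libraries, and LILRB2 stands at 0.786 in E2-2, against 0.00805 in vector, where it has the lowest place.

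On the chromosome 19 segment from VSTM1 to FCAR, 849.6 kb long with 70 genes, the receptors did not move as a block. Besides the members, 16 of the segment's genes had 30 reads in E2-2 and vector together, and 2 were called higher and 1 lower, beside 8.45% and 3.55% over all genes. All 3 passed the minimum only through the library where they are high, so their calls say nothing of the segment. The higher genes were LILRB5, with 29 reads in E2-2 and 1 in vector, and LAIR2, the soluble relative of LAIR1, with 31 reads in E2-2 and 13 in vector. The lower gene was KIR3DX1, with 3 reads in E2-2 and 38 in vector. The median log2 fold of these 16 genes was -0.19, beside -0.03 over all genes. For E2A 0 of 15 were called, beside 4.89% higher and 1.58% lower over all genes. For HEB the called gene of 14 was KIR3DX1, at 5.04-fold (2.32 to 12.5) lower than in vector, beside 2.55% and 1.23%. With 8 reads in HEB and 38 in vector, KIR3DX1 again passed the minimum only through vector, and its call says nothing of the segment. VSTM1, called lower, and LILRB2, called higher, thus stand on the same segment with LAIR1 and LILRA2, not called, and with RPS9, which differed by 1.22-fold (1.17 to 1.27) in E2-2, below vector.

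**Figure D4:**
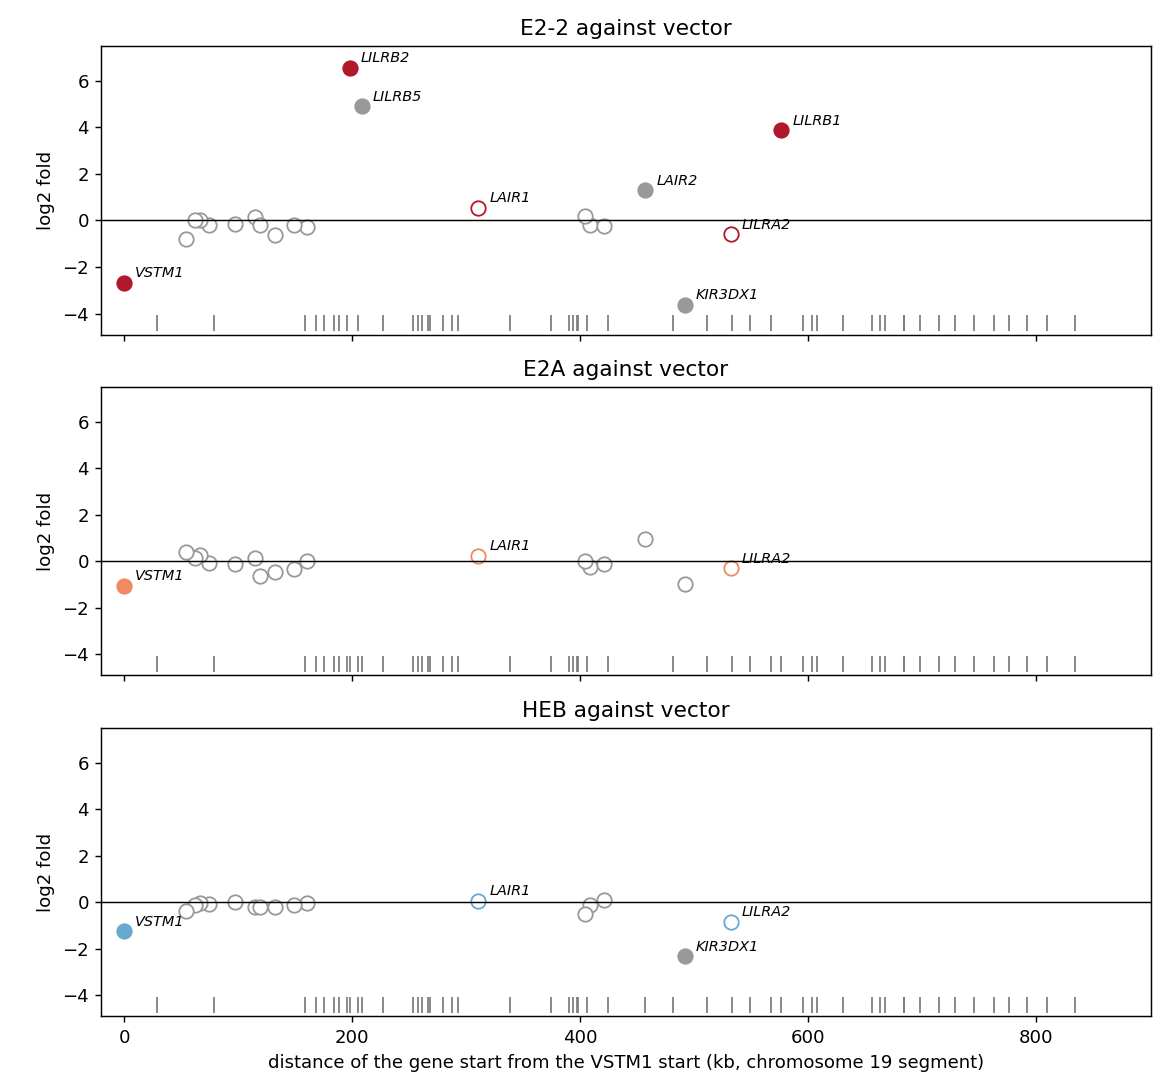
Log2 fold against vector of genes on the chromosome 19 segment, by distance of the gene's lower coordinate from that of VSTM1 in kb, 1 panel per E protein; coloured circles are members, grey circles other genes, filled when called, and ticks mark genes with under 30 reads. Called genes are named and most others lie near 0, with LILRB2, LILRB5, LILRB1 and LAIR2 above and VSTM1 and KIR3DX1 below in E2-2.

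The other genes of both receptor families were given as a list of 26, of which 25 stood in the table. In E2-2, 4 of 10 measured were higher than in vector and 1 lower (median log2 fold 0.14), beside 8.45% and 3.55% over all genes. Of the called genes, LILRB5 had 29 reads in E2-2 and 1 in vector, LAIR2 31 and 13, and FCRLB 8 and 25. Each of these passed the read minimum only through the library where it is high, so nothing is read from that count. FCER1G, the ITAM adaptor of LILRA2 and FCAR, had 184 reads in E2-2, 255 in E2A, 86 in HEB and 20 in vector. Its fold over vector was 9.46 (5.95 to 15.9) with E2-2, 11.3 (7.14 to 18.7) with E2A and 4.05 (2.47 to 6.96) with HEB, all called. Unlike TYROBP, FCER1G had its highest level in E2A, 14.4 CPM, beside 12.1 CPM in E2-2, and the interval of E2-2 against E2A, 0.692 to 1.02, included 1. The other higher genes in E2-2 were LILRB5, FCGR2C (2.45-fold, 1.98 to 3.03) and LAIR2 (2.45-fold, 1.25 to 5.11), and FCRLB, an intracellular Fc receptor-like protein, was 3.04-fold (1.33 to 7.79) lower. In E2A 1 of 9 was higher and 1 lower (median 0.04), beside 4.89% and 1.58% over all genes. The lower gene in E2A was FCRLB, with 13 reads, again measured only through vector. In HEB 1 of 8 was higher and 0 lower (median -0.08), beside 2.55% and 1.23%.

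The next list was meant for receptors that pair with TYROBP and for its sister adaptors. In E2-2, 4 of 8 measured were higher and 1 lower (median log2 fold 0.73), with the same counts in E2A (median 1.09). In HEB, 4 of 8 were higher and 0 lower (median 0.77). Over all genes, 8.45% were higher and 3.55% lower in E2-2, 4.89% and 1.58% in E2A, and 2.55% and 1.23% in HEB. The higher genes were CD300C, CD33, TREML2 and the adaptor FCER1G, which the list before also held. The lower gene was TREM1, and pairing with TYROBP was not tested. CD300C, and TREM1 in E2-2, passed the read minimum only through the library where they are high, so nothing is read from these counts. CD300C, an activating receptor, had 192 reads in E2-2, 245 in E2A, 62 in HEB and 4 in vector, 49.4-fold (18.97 to 183), 54.1-fold (20.9 to 200.03) and 14.6-fold (5.43 to 55.3) higher than in vector. CD33, in human cells an ITIM receptor that this list also held, had folds over vector of 4.08 (3.68 to 4.54) with E2-2, 3.03 (2.73 to 3.38) with E2A and 3.18 (2.86 to 3.55) with HEB, all called. TREM1, which amplifies inflammatory signals through TYROBP, stood below vector by 7.78-fold (4.35 to 15.1) with E2-2 and by 2.81-fold (1.94 to 4.12) with E2A, both called, and by 1.94-fold (1.39 to 2.72) with HEB, not called. CLEC5A, the most abundant of these receptors by reads, differed by 1.16-fold (1.12 to 1.203) in E2-2, below vector.

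Of 14 other inhibitory myeloid receptors, 1 of 7 measured was higher in E2-2 than in vector and 0 lower (median log2 fold 0.10), 2 of 8 in E2A (median 0.33) and 1 of 6 in HEB (median -0.17). The shares over all genes were 8.45% higher and 3.55% lower in E2-2, 4.89% and 1.58% in E2A, and 2.55% and 1.23% in HEB. CLEC12A, an ITIM receptor of myeloid cells, had 115 reads in E2-2, 50 in E2A, 24 in HEB and 3 in vector. Its libraries stood in the order seen for LILRB1, LILRB2 and TYROBP. Over vector the fold was 39.4 (13.2 to 194) with E2-2 and 14.7 (4.75 to 73.7) with E2A. CLEC12A, and in E2A also CD300A with 26 reads and 6 in vector, passed the read minimum only through the library where they are high. Nothing is read from the counts in E2-2 and E2A. The higher gene in HEB was MILR1, with 253 reads in HEB and 117 in vector, at 2.04-fold (1.63 to 2.56). CLEC12A had under 30 reads in HEB and vector together.

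Enzymes that act below these receptors were higher in part. Of 21 such kinases, phosphatases and adaptors, 5 of 18 measured were higher in E2-2 than in vector and 0 lower (median log2 fold 0.04), 4 of 18 in E2A (median 0.05) and 1 of 18 in HEB (median 0.04), with 0 lower in each. Beside these, 8.45% of all genes were higher and 3.55% lower in E2-2, 4.89% and 1.58% in E2A, and 2.55% and 1.23% in HEB. SYK, which binds phosphorylated ITAMs, had 266 reads in E2-2, 150 in E2A, 75 in HEB and 35 in vector. Its fold over vector was 7.82 (5.48 to 11.5) with E2-2, 3.78 (2.60 to 5.63) with E2A and 2.02 (1.34 to 3.11) with HEB. SRC was 5.00-fold (3.31 to 7.80) and VAV1, an exchange factor that acts after SYK, 3.14-fold (2.88 to 3.42) higher in E2-2. PTPN6, a phosphatase that ITIMs recruit, was 2.21-fold (2.05 to 2.38) higher in E2-2. The other called gene in E2-2, named after its values were seen, was FYN (2.72-fold, 1.94 to 3.88). PTPN11 and INPP5D, the other phosphatases of the list, stood below vector by 1.17-fold (1.13 to 1.204) and 1.44-fold (1.37 to 1.52) in E2-2, and the kinase LYN by 1.09-fold (1.04 to 1.15).

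**Figure D5:**
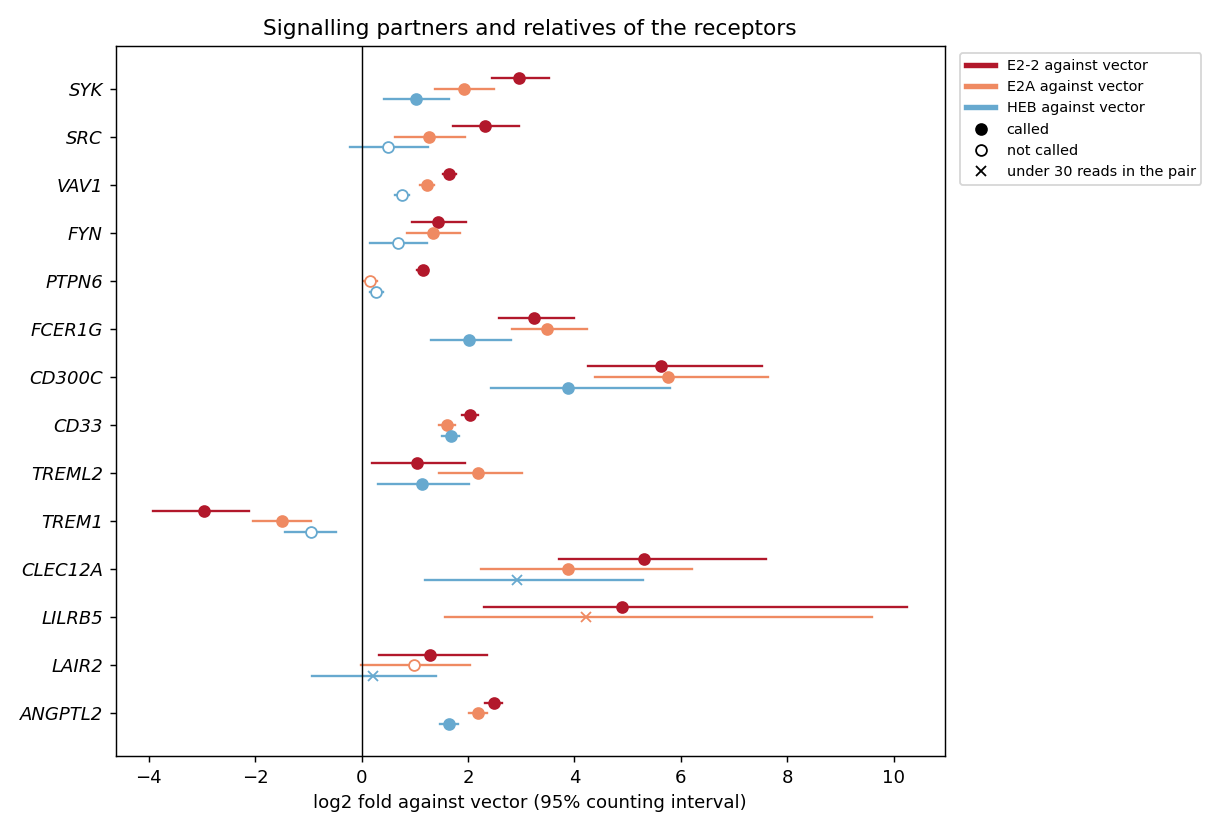
Log2 fold against vector of called signalling partners and relatives of the receptors in E2-2, E2A and HEB, with lines for 95% counting intervals and symbols as for the members. SYK, SRC and CLEC12A lie well above vector in E2-2, FCER1G is at 9.46-fold in E2-2 and 11.3-fold in E2A, and TREM1 lies below vector in all 3.

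Ligands of the receptors, 21 genes, gave 1 of 7 measured higher and 0 lower in E2-2 (median log2 fold 0.18), 1 higher and 1 lower in E2A (median 0.22) and 1 higher in HEB (median -0.09). Shares over all genes were 8.45% higher and 3.55% lower in E2-2, 4.89% and 1.58% in E2A, and 2.55% and 1.23% in HEB. The lower gene in E2A was GAL, the galanin gene, which the list held although galanin is not known to bind these receptors. The higher gene was ANGPTL2, an angiopoietin-like protein that binds LILRB2. Its fold over vector was 5.59 (4.99 to 6.26) with E2-2, 4.56 (4.07 to 5.11) with E2A and 3.13 (2.78 to 3.53) with HEB. MHC class I genes, whose products bind LILRB1 and LILRB2, differed little, with HLA-B at 1.13-fold (1.07 to 1.201) and B2M at 1.07-fold (1.04 to 1.09) higher in E2-2 than in vector. The collagen genes of the list, COL1A1, COL3A1, COL4A1 and COL17A1, had 1 to 6 reads in each library.

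Markers of other blood cells were read beside these genes, since monocytes and NK cells use many of them. The summed level of 12 monocyte markers was 65.2 CPM in E2-2, 31.4 in E2A, 30.3 in HEB and 25.7 in vector. Of these sums CSF1R alone made up 42.6 CPM in E2-2, 10.8 in E2A, 6.83 in HEB and 1.47 in vector, so their order is that of 1 gene. FGL2 went the other way on few reads, with 1 in E2-2, 12 in E2A, 4 in HEB and 18 in vector. CSF1R, the receptor for a growth factor of monocytes, had 646 reads in E2-2, 191 in E2A, 113 in HEB and 23 in vector, and was called higher with every E protein. Its fold over vector was 28.9 (19.1 to 45.9) for E2-2, 7.33 (4.74 to 11.8) for E2A and 4.63 (2.94 to 7.60) for HEB. MNDA had 131 to 223 reads and LYZ 98 to 149, neither called, and MS4A7, with 35 to 70, was called lower in E2A. CD14 had 1 to 3 reads in each library, FCN1 0 or 1, and CD68 and S100A12 had 0 in all 4. The 12 T and NK cell markers summed to 79.9 CPM in E2-2, 89.3 in E2A, 58.7 in HEB and 46.5 in vector, most of it CD4, which was called higher in E2A. CD3D, with 2 reads in E2-2, 10 in E2A, 15 in HEB and 34 in vector, was called lower with all 3 E proteins. In E2-2 and E2A CD3D passed the read minimum only through vector, and all 3 calls share the vector library. CD8A, with 16 reads in E2-2 and 37 in vector, was called lower with E2-2 and HEB. NKG7 had 22 reads in E2-2, 14 in E2A, 10 in HEB and 4 in vector, the order of libraries of LILRB1 and LILRB2, and GNLY had 0 in all 4. The 8 B cell markers summed to 31.3 CPM in E2-2, 24.1 in E2A, 17.8 in HEB and 18.98 in vector. In E2-2, CD79A was 4.83-fold (3.24 to 7.43) and PAX5 2.92-fold (2.19 to 3.95) higher than in vector, and CD22 was 3.02-fold (1.39 to 7.29) lower. With 9 reads in E2-2 and 28 in vector, CD22 passed the read minimum only through vector. CD79A had 141 reads in E2-2, 75 in E2A, 35 in HEB and 30 in vector, again highest in E2-2, while MS4A1 had 0 or 1 read. The 9 neutrophil markers summed to 12815 CPM in E2-2, 14877 in E2A, 19581 in HEB and 16212 in vector, most of it MPO, a granule enzyme of myeloid precursors. The 10 epithelial, fibroblast or packaging cell markers summed to 43.6 to 57.7 CPM, lowest in HEB and highest in vector, nearly all of it EPCAM. The part of these cells in the receptor differences was not tested beyond these levels.

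For members with at least 100 reads over the 4 libraries, the genes most alike were sought among 10581 protein-coding genes by the distance between log2(CPM + 1) values, each gene centred on its mean over the 4 libraries. With 4 libraries many genes lie close, and this is a description. VSTM1 was nearest to DHRS9 (distance 0.12) and FCGBP (0.16). DHRS9 stood at 8.84 CPM in E2-2, 24.1 in E2A, 22.7 in HEB and 50.1 in vector. LILRB2 was nearest to RASGRF1 (0.14) and CMPK2 (0.14), and RASGRF1 had 129 reads in E2-2, 26 in E2A, 13 in HEB and 6 in vector. LAIR1 was nearest to CLK4 (0.01) and KATNAL1 (0.02), LILRA2 to ABCB1 (0.09) and RIPPLY3 (0.09), and FCGR2A to EXOSC4 (0.04) and KIF21B (0.06).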

How the data were processed

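RNA-seq of Kasumi-1 cells gave 4 libraries, 1 per group. Per the file headers, the authors deposited a whole-number read count and an FPKM value per gene and library; the length and total behind FPKM are not given in the sources used. Per the submitters' processing notes, HTSeq 0.9.1 and TopHat2 2.0.9 were among the tools, as were Bowtie2 2.2.9 and MACS2 2.1.1.20160309; hg19 and hg38 both appear as builds, with no role for either. Annotation and strand setting are likewise not given. Counts were scaled over the 4 libraries by TMM (edgeR 4.0.16, R 4.3.3). Folds are ratios of scaled counts with Clopper-Pearson intervals of the conditional binomial, and CPM and FPKM intervals are exact Poisson intervals, both at 95%. Pairs of counts of 3 or fewer got no fold. Alternatives were library totals, DESeq2 1.42.0 size factors, ratios of FPKM, read minimums of 1 and 100, folds of 1.5 and 3, and sums over near copies. Every member is named, and of each other list up to 4 called genes with the interval bound farthest from 1; other genes named were chosen after their values were seen. One gene of the list of enzymes is not reported here. Members and lists were chosen with earlier results of these data known. Python 3.11.15, numpy 2.4.6, scipy 1.17.1, pandas 2.3.3 and matplotlib 3.10.9 were used. The ChIP-seq libraries and their inputs were not analysed here.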

Additional observations from a re-analysis of the deposited data

How the results depend on the processing

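All counts of called members were within 1.5 times the reported ones under library totals, DESeq2 size factors and FPKM ratios, and no called member changed direction under these. FPKM ratios nearly repeat the folds of library totals and are no separate check. The log2 fold of LILRB2 in E2-2 against vector was 6.61 under both. With at least 100 reads, 1 member was higher in E2-2 than in vector and 1 than in E2A, while 0 were higher in E2-2 or in E2A than in HEB. With no read minimum they numbered 3 for E2A against vector (LILRB1, LILRB2 and TYROBP) and 2 for E2A against HEB. With a 1.5-fold rule, 4 were higher for E2-2 against E2A, and 2 were lower both for E2-2 and for HEB against vector, LILRA2 joining VSTM1. With a 3-fold rule, 1 was higher for E2-2 against E2A and 0 for E2A against HEB, and 0 were lower for E2-2 against HEB and for E2A and HEB against vector. These changes follow from the rules themselves, since the folds and reads are the same. The log2 fold of LILRB2 in E2-2 against E2A was 2.66 alone and 1.74 with LILRB5 and LILRA6 added. Setting a count of 0 to 1 read changed nothing, as LILRB4 alone had 0 reads and has no fold. No paired analysis was possible because each group had 1 library. Depth limits LILRB3, LILRB4 and FCAR, with 28 reads or fewer over all 4 libraries.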
